A study of Mus musculus with 12 samples.

Results

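The expression of p53 and its target genes was examined in mouse embryonic fibroblast (MEF) cells that either expressed a mutant IDH2 or were treated with 2-HG, the metabolite that such mutants produce. The list holds 32 genes, Trp53 itself and 31 genes known to respond to p53 or to act on it, of 20443 gene names present in both expression tables. They were matched by symbol, and those averaging 1 RPM or more (RPM is the number of reads per gene in 1000000 counted reads) in a table were tested there, 30 of 32 in the first and 31 of 32 in the second. All the cells were MEF cells of C57BL/6 embryos at embryonic day 13.5, which became immortal on their own through serial passage. 2MUT cells stably expressed the FLAG-tagged R172S mutant of human IDH2 delivered by retrovirus and selected with puromycin, and Control cells carried the mock vector. In the other experiment, MEF cells received 300 μM of membrane-permeant octyl-(R)-2HG for 24 h, 2-HG(+), or none, 2-HG(-). The labels give 2-HG(-) as DMSO for 24 h, whereas the text of the study calls these cells non-treated. Each group had 3 libraries, and each comparison was made within its own table, so the comparisons share no library.

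Some features of these samples bear on every value below. Neither whether the selected cells were a pool or a clone nor whether the replicates were separate cultures is stated in the sources used here, so the p-values measure the spread between these libraries. In bulk RNA, fewer cells with a transcript and less of it per cell cannot be told apart. Loss of p53 or of its activator p19Arf is common when MEF cells immortalize on serial passage, and the p53 status of these cells is not given in the sources used here. Of 8 fibroblast markers, 7 were above 1 RPM in every group. These levels also moved with the groups, since by limma 5 of 7 tested fell and 1 rose in 2MUT, and 3 fell and 1 rose with 2-HG. The markers summed to 14256 to 16251 RPM in Control and 12981 to 13428 RPM in 2MUT, and to 21140 to 22797 RPM in 2-HG(-) and 15050 to 16064 RPM in 2-HG(+). Their part in the results was not tested. The summed RPM of 4 epithelial markers, such as Epcam, did not exceed 0.732 in any library, that of 4 endothelial markers 2.94 and that of 4 muscle markers 3.46. The leukocyte markers summed to between 6.33 and 13.4 RPM, nearly all of it Cd68. The libraries held between 6472439 and 7313602 reads in the experiment with 2MUT and between 14959318 and 18363768 in that with 2-HG, so a limit of 3 reads corresponds to 0.41 to 0.464 RPM and 0.163 to 0.201 RPM.

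p53 is a transcription factor that is kept low by rapid degradation and accumulates after DNA damage, oncogene activity or metabolic stress. It then activates genes that halt the cell cycle, repair DNA or kill the cell, and also genes such as Mdm2 that switch it off again. Much of its control is on the protein, so the Trp53 transcript is not a measure of p53 activity. Cells can also transcribe several of these targets without p53, and the genes are therefore described by role.

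p53 binds as a tetramer to a pair of half-sites of 10 bases. The half-site pattern was searched, with no mismatch allowed, in the RefSeq promoter windows of GRCm38.p6, which held 25 of the 32 genes. A window ran from 250 bases before to 50 after a transcription start. A half-site was present in 13 of 36 windows, belonging to 12 of these 25 genes, and in 8.36% of all 32851 windows. The genes were listed as p53 targets, and a match of letters is a description and not evidence of binding. The half-sites of 11 genes are shown with 10 bases on each side, read in the direction of the gene to show where the search placed them and which bases surround them. The half-sites resemble each other because the search required it, and the other 13 of the 25 genes held no exact match. Stretches close to the pattern were not counted, such as the bases directly before the half-site of Ccng1. Capitals mark the half-site and the coordinates are those of the half-site. The pattern reads the same on both strands. The site in Gtse1 lies just after a start, and that in Aen lies after one annotated start and before another. The others lie before the start of their window. Those of Aen, Ei24, Gadd45a, Gtse1, Polk and Sesn1 lie inside the gene as GENCODE M21 annotates it.
Trp53, chr11:69580284-69580293, plus strand: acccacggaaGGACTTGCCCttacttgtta
Mdm2, chr10:117710935-117710944, minus strand: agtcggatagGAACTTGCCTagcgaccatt
Ppm1d, chr11:85311122-85311131, plus strand: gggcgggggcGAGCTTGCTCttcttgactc
Ccng1, chr11:40755462-40755471, minus strand: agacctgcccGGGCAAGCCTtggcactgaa
Gtse1, chr15:85859955-85859964, plus strand: gagcaagttgGGGCTTGCCTctgacttgcc
Gadd45a, chr6:67037438-67037447, minus strand: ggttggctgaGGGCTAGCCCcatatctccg
Sesn1, chr10:41887266-41887275, plus strand: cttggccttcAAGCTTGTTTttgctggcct
Bax, chr7:45467090-45467099, minus strand: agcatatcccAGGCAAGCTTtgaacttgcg
Aen, chr7:78895937-78895946, plus strand: agccgaagccGGGCTTGTCCgggcaaggag
Ei24, chr9:36797335-36797344, minus strand: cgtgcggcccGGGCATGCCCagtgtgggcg
Polk, chr13:96519409-96519418, minus strand: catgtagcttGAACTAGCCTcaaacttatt

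Cdkn1a was the only one of the 25 genes whose windows held a pair of exactly matching half-sites no more than 13 bases apart. This arrangement was found in 0.0731% of all windows, and pairs with a mismatch were not searched. Cdkn1a has an annotated start 2790 bases upstream of another one, and the pair lies just before the upstream start, 2863 bases from the downstream start. The stretch before the upstream start, chr17:29090729-29090975 on the plus strand of GRCm38.p6, is shown because Cdkn1a changed most of all the members. Capitals mark the exactly matching half-sites, which are separated by 12 bases. The bases directly after the second one come close to the pattern without matching it and are not marked.
Cdkn1a: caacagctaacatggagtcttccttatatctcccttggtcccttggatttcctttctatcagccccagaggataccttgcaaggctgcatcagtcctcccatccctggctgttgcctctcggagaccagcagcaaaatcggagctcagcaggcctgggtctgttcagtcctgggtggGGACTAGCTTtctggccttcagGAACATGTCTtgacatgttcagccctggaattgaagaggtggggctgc

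In 2MUT cells, 2 members were up-regulated and 7 were down-regulated compared with Control. The up-regulated genes were Ccng1 and Sesn1, and the down-regulated genes were Gtse1, Plk2, Gadd45a, Gadd45b, Bbc3, Eda2r and Phlda3. By limma with Benjamini-Hochberg adjustment over 11065 genes, 16.5% of all genes tested were called higher and 17.3% lower, against 6.67% and 23.3% of the 30 members. The share called in either direction was 30.0% of the members and 33.8% of all genes, so the members were not called more often than other genes. Their median log2 fold change was -0.18, and that of all genes was 0.01. The count of up-regulated members did not hold when any 1 of the 6 libraries was left out, with 1 without a Control library and 0 without a 2MUT library (at an unadjusted p under 0.05, 3 or 4), and DESeq2 called 3. Of all genes, 1826 were called higher with all libraries, 1504 to 1908 without a Control library and 1290 to 1373 without a 2MUT library. By DESeq2, 1838 genes were called higher.

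With 2-HG, 8 members were up-regulated and 4 were down-regulated. The up-regulated genes were Cdkn1a, Gadd45a, Eda2r, Aen, Plk3, Zfp365, Gtse1 and Zmat3, and the down-regulated genes were Sesn1, Cd82, Trp53inp1 and Gadd45b. The shares were 25.8% higher and 12.9% lower of the 31 members tested, where 16.1% and 16.7% of 10384 genes were called. In either direction, 38.7% of the members and 32.8% of all genes were called. The median log2 fold change was 0.22 for the members and -0.02 for all genes. The count of down-regulated members was 2 without 2-HG(-) replicate 2 or 3 or without 2-HG(+) replicate 2. Of all genes, 1737 were called lower with all libraries, and 1600, 1204 and 1326 in these fits. At an unadjusted p under 0.05, 15 of 30 members and 44.2% of all genes passed in 2MUT, and 16 of 31 members and 43.2% of all genes with 2-HG. Groups that did not overlap were frequent among all genes, 23.5% higher and 24.0% lower in 2MUT and 22.2% and 24.1% with 2-HG. Among the members they were 5 higher and 12 lower in 2MUT and 9 higher and 4 lower with 2-HG.

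**Figure D1:**
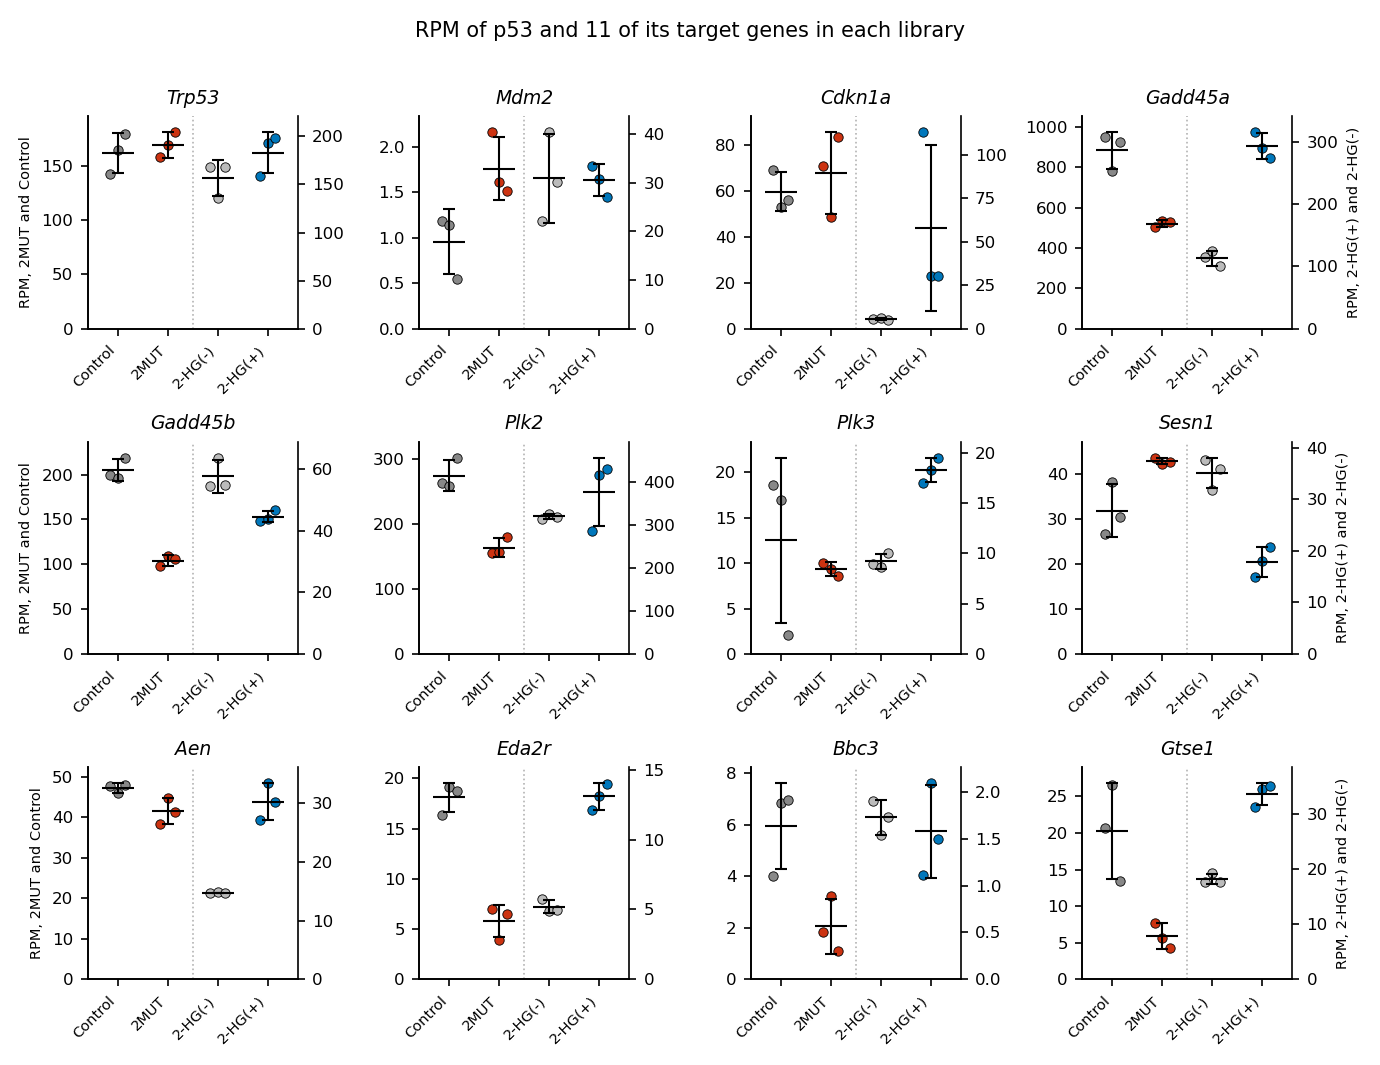
RPM of 12 members in each library (points), with the mean and SD of each group of 3 libraries (bars); the left axis belongs to Control and 2MUT, the right axis to 2-HG(-) and 2-HG(+), and levels should not be compared across the dotted line. Gadd45a, Eda2r and Gtse1 were lower in every 2MUT library than in every Control library and higher in every 2-HG(+) library than in every 2-HG(-) library, whereas Trp53 overlapped between groups in both experiments. Of all genes, 24.0% were lower without overlap in 2MUT and 22.2% higher without overlap with 2-HG.

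The Trp53 transcript was measured at 142, 165 and 179 RPM in Control and at 158, 169 and 181 RPM in 2MUT. In the other experiment it was at 168, 136 and 168 RPM in 2-HG(-) and at 159, 193 and 198 RPM in 2-HG(+). The groups overlapped in both experiments. The log2 fold change was 0.07 in 2MUT (95% interval -0.17 to 0.31, limma adjusted p = 0.67) and 0.22 with 2-HG (-0.06 to 0.50, adjusted p = 0.21), so a change of Trp53 was not detected and a small one is not excluded by these intervals.

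Among the genes that restrain p53, Mdm2 encodes the ubiquitin ligase that marks p53 for degradation. It was near the limit of detection in the first table, with 8, 8 and 4 reads in Control (1.18, 1.14 and 0.547 RPM) and 14, 11 and 11 reads in 2MUT (2.16, 1.61 and 1.51 RPM). The 2MUT libraries were all above the Control libraries, but the log2 fold change of 0.51 had a 95% interval from -0.06 to 1.07 (limma adjusted p = 0.15). The mean was 1.84-fold higher, and at these low levels the log2 value depends on the 1 RPM added before the logarithm. DESeq2, which adds none, gave 0.89 and did not call it. In 2-HG(-) and 2-HG(+), where more reads fell on the gene, Mdm2 was at 22.1, 40.4 and 30.1 RPM and at 33.5, 30.8 and 27.1 RPM. These groups overlapped, with a log2 fold change of 0.02 (-0.42 to 0.45, adjusted p = 0.96). Mdm4, a relative of Mdm2 that masks the activation domain of p53, and Ppm1d, a phosphatase that acts on p53 and on the kinases above it, passed the threshold in neither experiment. The 2MUT cells gave changes of 0.14 and -0.32, and 2-HG gave 0.09 and -0.26.

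Ccng1 encodes cyclin G1, a p53 target that acts back on Mdm2 through a phosphatase. It was at 67.6, 51.3 and 67.0 RPM in Control and at 82.7, 82.6 and 80.5 RPM in 2MUT, which did not overlap. The rise of 0.41 ± 0.13 (SE) on the log2 scale (limma adjusted p = 0.029) did not pass in 4 of the 6 fits that left out 1 library, without Control replicate 2 and without each 2MUT replicate, with adjusted p between 0.07 and 0.087. With 2-HG the groups overlapped, at 303, 248 and 173 RPM in 2-HG(-) and 252, 267 and 266 RPM in 2-HG(+), and the log2 fold change was 0.15 (adjusted p = 0.54).

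Trp53inp1 encodes a stress-induced nuclear protein that promotes phosphorylation of p53. It was at 44.9, 55.4 and 50.9 RPM in 2-HG(-) and at 41.8, 34.9 and 37.2 RPM in 2-HG(+), and all 2-HG(+) libraries were below all 2-HG(-) libraries. The fall of 0.40 was close to the threshold (log2 fold change -0.40 ± 0.12, limma adjusted p = 0.03). It did not pass in 4 of the 6 fits without 1 library, which were those without 2-HG(-) replicate 2 or 3 and without 2-HG(+) replicate 2 or 3 (adjusted p between 0.075 and 0.12). Nor did it pass under median-of-ratios scaling, in an unmoderated test or with a block for the replicate number. Control was at 13.2, 16.5 and 9.71 RPM and 2MUT at 13.8, 10.7 and 9.77 RPM, which overlapped (log2 fold change -0.17, adjusted p = 0.56).

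Gtse1 encodes a protein made in the S and G2 phases that binds p53 and moves it out of the nucleus. It was at 20.7, 26.6 and 13.5 RPM in Control and at 7.72, 5.71 and 4.27 RPM in 2MUT, a mean 3.44-fold lower. The 2-HG(-) libraries were at 17.6, 19.3 and 17.7 RPM and the 2-HG(+) libraries at 31.3, 34.5 and 35.0 RPM, a mean 1.85-fold higher. No library overlapped the other group in either experiment. The log2 fold changes were -1.61 ± 0.26 (limma adjusted p = 0.00078) and 0.85 ± 0.11 (adjusted p = 0.00045). The 250 bases before its first annotated start, chr15:85859457-85859706 on the plus strand, are shown because they carry CCAAT boxes, which are frequent in promoters of genes expressed in S and G2.
Gtse1: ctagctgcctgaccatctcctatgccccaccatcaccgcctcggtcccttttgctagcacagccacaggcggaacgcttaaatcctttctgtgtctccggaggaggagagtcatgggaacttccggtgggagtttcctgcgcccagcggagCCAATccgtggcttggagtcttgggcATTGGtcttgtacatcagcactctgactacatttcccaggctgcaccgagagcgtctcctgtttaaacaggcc
Capitals mark CCAAT on either strand, read as ATTGG on the other one. CCAAT was present in 17 of the 36 windows of the members and in 37.4% of all windows. TTTGAA, the cell cycle homology region of many such promoters, searched on both strands, was in the windows of 3 members, Aen, Bax and Ercc5, and in 17.9% of all windows.

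Gtse1 moved with genes of the cell cycle. All 7 tested genes of a proliferation list (Mki67, Top2a, Ccna2, Cdk1, Aurka, Plk1 and Bub1) fell in 2MUT, with a median log2 fold change of -1.86, and all 7 rose with 2-HG, with a median of 0.97. Their mean in each library was 1.81 to 1.97 below the Control mean on the log2 scale in 2MUT and 0.838 to 0.956 above the 2-HG(-) mean in 2-HG(+). Whether this difference in proliferation genes has a part in the changes of the members was not tested.

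Of the 9 genes of arrest and growth control, 1 was up-regulated and 3 were down-regulated in 2MUT, and 4 were up-regulated and 2 were down-regulated with 2-HG. The shares of all genes were 16.5% higher and 17.3% lower in 2MUT and 16.1% and 16.7% with 2-HG. Cdkn1a encodes p21, the inhibitor of cyclin-dependent kinases that carries out much of the p53 arrest. It was at 69.4, 53.3 and 56.3 RPM in Control and at 71.2, 48.8 and 83.9 RPM in 2MUT, with overlapping groups and a log2 fold change of 0.16 (95% interval -0.24 to 0.56, limma adjusted p = 0.53). With 2-HG it rose from 5.66, 6.15 and 4.86 RPM to 113, 30.0 and 30.3 RPM. Every 2-HG(+) library was above every 2-HG(-) library, but the first stood apart from the others. The log2 fold change was 2.88 ± 0.42 (adjusted p = 0.00082) and was 2.25 without that library. The change in 2MUT minus that with 2-HG was -2.72 (95% interval -3.87 to -1.57, adjusted p = 0.0013), and this difference passed the threshold under each alternative run.

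Gadd45a encodes a stress sensor that binds PCNA and p21 and takes part in G2 arrest and repair. It was at 949, 782 and 925 RPM in Control and at 502, 534 and 528 RPM in 2MUT, a mean 1.70-fold lower. In contrast, it rose from 114, 124 and 99.9 RPM in 2-HG(-) to 315, 289 and 274 RPM in 2-HG(+), a mean 2.60-fold higher. The libraries of each group were close together and apart from the other group. The log2 fold changes of -0.76 ± 0.09 (limma adjusted p = 0.00015) and 1.37 ± 0.11 (adjusted p = 2.1e-05) passed under each alternative run, and their difference was the most significant among the members (-2.13, adjusted p = 1.8e-07).

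Gadd45b, a relative of Gadd45a that also responds to NF-κB and TGF-β, was the only member that limma called in the same direction in both experiments with all libraries. It fell from 200, 196 and 219 RPM in Control to 97.8, 109 and 106 RPM in 2MUT, a mean 1.97-fold lower (log2 fold change -0.97 ± 0.10, limma adjusted p = 3.9e-05). With 2-HG it went from 54.7, 63.9 and 54.8 RPM to 43.4, 44.0 and 46.8 RPM, a mean 1.29-fold lower (-0.36 ± 0.11, adjusted p = 0.028). The groups did not overlap in either experiment. The fall was larger in 2MUT, with a difference of -0.61 between the changes (adjusted p = 0.0034). The fall with 2-HG did not pass in 4 of the 6 fits without 1 library (without 2-HG(-) replicate 2 or 3 and without 2-HG(+) replicate 1 or 2, adjusted p between 0.053 and 0.094), nor in an unmoderated test or with a block for the replicate number.

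Plk2 and Plk3 encode polo-like kinases that are induced by stress and, unlike Plk1, are linked to arrest. Plk2 was at 264, 259 and 303 RPM in Control and at 155, 157 and 181 RPM in 2MUT, a mean 1.68-fold lower with no overlap (log2 fold change -0.74 ± 0.10, limma adjusted p = 0.00031). In 2-HG(-) it was at 315, 326 and 318 RPM, and in 2-HG(+) at 285, 416 and 431 RPM, so that the first 2-HG(+) library was below the 2-HG(-) libraries and the others above. Its log2 fold change with 2-HG was 0.22 (adjusted p = 0.30) and was 0.40 without that library (adjusted p = 0.011).

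Plk3 rose with 2-HG from 8.98, 8.62 and 10.0 RPM to 17.0, 18.3 and 19.5 RPM, a mean 1.98-fold higher with no overlap (log2 fold change 0.92 ± 0.13, limma adjusted p = 0.00058). In the experiment with 2MUT it was at 18.6, 17.0 and 2.05 RPM in Control and at 10.0, 9.37 and 8.53 RPM in 2MUT. The third Control library was far below the other Control libraries, and it had more genes (173, or 1.56% of those tested) over 2-fold away from both other libraries of its group than any other library. The log2 fold change of Plk3 was 0.01 (adjusted p = 0.99) with this library and -0.87 (adjusted p = 0.003) without it.

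Sesn1 encodes sestrin 1, which restrains mTORC1, and it was the only member up-regulated in 2MUT and down-regulated with 2-HG. It was at 26.6, 38.2 and 30.5 RPM in Control and at 43.6, 42.2 and 42.7 RPM in 2MUT (log2 fold change 0.43 ± 0.15, limma adjusted p = 0.04). With 2-HG it fell from 37.6, 31.8 and 35.9 RPM to 14.9, 18.0 and 20.7 RPM, a mean 1.96-fold lower (-0.94 ± 0.14, adjusted p = 0.00093). The groups did not overlap in either experiment. The rise in 2MUT did not pass in 5 of the 6 fits without 1 library (all except that without Control replicate 2, adjusted p between 0.061 and 0.12), whereas the fall with 2-HG passed in each alternative run. The difference between the changes was 1.37 (adjusted p = 0.00016).

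Zmat3, which encodes an RNA-binding protein and a growth inhibitor, was at 24.6, 30.7 and 40.8 RPM in 2-HG(-) and at 47.7, 48.1 and 57.2 RPM in 2-HG(+). All 2-HG(+) libraries were above the 2-HG(-) libraries (log2 fold change 0.68 ± 0.17, limma adjusted p = 0.014). It was at 101, 112 and 96.5 RPM in Control and at 91.0, 92.5 and 85.5 RPM in 2MUT. The 2MUT libraries were all below the Control libraries, but the change of -0.20 did not pass (adjusted p = 0.17). Btg2, an antiproliferative gene, and Ccng2, an unusual cyclin of resting cells, passed in neither experiment. In 2MUT their changes were -0.36 and 0.26, and that of Btg2 with 2-HG was -0.00. Ccng2 was at 181, 151 and 195 RPM without and at 213, 108 and 108 RPM with 2-HG. The first 2-HG(+) library was again apart from the others, and the log2 fold change was -0.36 with it (adjusted p = 0.27) and -0.69 without it (adjusted p = 0.003).

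Of the 8 apoptosis genes tested in both experiments, 3 were down-regulated and none up-regulated in 2MUT, and 2 were up-regulated and none down-regulated with 2-HG. Of all genes, 16.5% were called higher and 17.3% lower in 2MUT, and 16.1% higher and 16.7% lower with 2-HG. At an unadjusted p under 0.05, limma gave 4 lower (22.2% of all genes) and 1 higher (21.9% of all genes) in 2MUT. The higher one was Bax, which DESeq2 and limma with a block for the replicate number called. With 2-HG, limma gave 0 lower at that level (22.1% of all genes), and edgeR and DESeq2 also called 0 lower. With 2-HG, 6 were higher at an unadjusted p under 0.05 (21.1% of all genes) and DESeq2 called 3 (18.3% of all genes). Without 2-HG(-) replicate 3, 4 were called higher, as were 1187 of 10384 genes. The apoptosis genes are few, and their shares were not tested against those of other genes. Eda2r encodes a receptor of the TNF receptor family that binds ectodysplasin A2. It was at 16.4, 19.1 and 18.7 RPM in Control and at 6.95, 3.95 and 6.47 RPM in 2MUT, a mean 3.12-fold lower. It was at 5.77, 4.88 and 4.98 RPM in 2-HG(-) and at 12.1, 13.1 and 14.0 RPM in 2-HG(+), a mean 2.51-fold higher. No library overlapped the other group. The log2 fold changes were -1.52 ± 0.21 (limma adjusted p = 0.00028) and 1.18 ± 0.13 (adjusted p = 0.00018), and they differed by -2.70 (adjusted p = 1.9e-06). The bases before its start, chrX:97377217-97377459 on the minus strand of GRCm38.p6, are shown for comparison with Cdkn1a, since they held no p53 half-site.
Eda2r: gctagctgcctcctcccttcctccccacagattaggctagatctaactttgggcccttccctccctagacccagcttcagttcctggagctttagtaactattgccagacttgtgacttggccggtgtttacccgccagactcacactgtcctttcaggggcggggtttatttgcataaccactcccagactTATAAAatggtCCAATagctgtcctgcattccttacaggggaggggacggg
Capitals mark TATAAA, found in the windows of 4 members and in 13.6% of all windows, and CCAAT, both searched on both strands. The absence of a half-site says only that these letters are not in this window.

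Aen encodes a nuclease of apoptosis. With 2-HG it rose from 14.7, 14.8 and 14.7 RPM to 27.2, 33.5 and 30.3 RPM, a mean 2.06-fold higher with no overlap (log2 fold change 0.99 ± 0.12, limma adjusted p = 0.00028). It was at 47.8, 45.9 and 48.1 RPM in Control and at 38.3, 44.7 and 41.4 RPM in 2MUT. The 2MUT libraries were all lower, but the log2 fold change of -0.19 did not pass (adjusted p = 0.25), and the difference between the changes was -1.18 (adjusted p = 5.4e-05).

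Bbc3 encodes Puma, a BH3-only protein that promotes death at the mitochondrion. It had few reads and was at 4.00, 6.84 and 6.97 RPM in Control and at 1.85, 3.22 and 1.10 RPM in 2MUT, or 27 to 51 reads and 8 to 22 reads. The groups did not overlap (mean 2.88-fold lower, log2 fold change -1.21 ± 0.30, limma adjusted p = 0.0089). With 2-HG they overlapped, at 1.91, 1.54 and 1.74 RPM without and 1.12, 2.10 and 1.5 RPM with the compound (23 to 35 and 17 to 35 reads). The log2 fold change was -0.10 (adjusted p = 0.7). These levels are near the filter of 1 RPM, so this value depends on the 1 RPM added before the logarithm.

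Phlda3 encodes a protein that binds membrane phosphoinositides and thereby holds back Akt. It was at 26.5, 36.0 and 30.8 RPM in Control and at 23.3, 23.9 and 20.2 RPM in 2MUT (log2 fold change -0.44 ± 0.15, limma adjusted p = 0.044). The groups did not overlap, but the call was lost in 5 of the 6 fits without 1 library, all except that without Control replicate 1 (adjusted p between 0.062 and 0.15). The 2-HG(+) libraries, at 27.1, 31.1 and 27.6 RPM, were above the 2-HG(-) libraries, at 25.6, 22.7 and 22.6 RPM, but the log2 fold change of 0.26 was not past the threshold (adjusted p = 0.11).

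The other apoptosis genes passed in neither experiment by limma with all libraries and no block for the replicate number. Bax, the pore-forming effector of the mitochondrial pathway, had a log2 fold change of 0.33 in either experiment (adjusted p = 0.066 in 2MUT and 0.088 with 2-HG), with a difference of -0.01 (95% interval -0.41 to 0.40). In 2MUT it was called by DESeq2 (0.34, adjusted p = 0.044) and by limma with that block (0.33, adjusted p = 0.037). Without 2-HG(-) replicate 3, limma called it with 2-HG (0.45, adjusted p = 0.046). Perp, a membrane protein of desmosomes, and Apaf1, the core of the apoptosome, had changes of -0.34 and -0.21 in 2MUT and of 0.27 and 0.54 with 2-HG. In both the change in 2MUT was below that with 2-HG, by -0.61 (adjusted p = 0.012) and -0.76 (adjusted p = 0.027). That of Apaf1 did not pass without 2MUT replicate 3, 2-HG(-) replicate 1 or 2 or 2-HG(+) replicate 1 (adjusted p between 0.053 and 0.073). Its rise with 2-HG was called by DESeq2 (0.55, adjusted p = 0.041) and by limma without 2-HG(-) replicate 3 (0.79, adjusted p = 0.0081). Ei24, which encodes a membrane protein of the endoplasmic reticulum, had changes of 0.05 and -0.01. Pmaip1, which encodes the BH3-only protein Noxa, was listed at 0 in all 12 libraries and was not tested.

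Of the genes of repair and nucleotide supply, none of 5 tested was called in 2MUT by limma, edgeR or DESeq2 with all libraries and no replicate block. By limma, 2 were lower at an unadjusted p under 0.05, as were 22.2% of all genes. With 2-HG, 1 of 6 was called higher, where 16.1% of all genes were. Zfp365, which is known to protect the genome during replication, was at 9.20, 7.96 and 8.89 RPM in 2-HG(-) and at 11.4, 20.6 and 22.0 RPM in 2-HG(+). All 2-HG(+) libraries were higher, the first of them least (log2 fold change 0.92 ± 0.22, limma adjusted p = 0.011). Control (22.9, 21.5 and 16.1 RPM) and 2MUT (18.2, 23.6 and 20.2 RPM) overlapped, with a change of 0.04 (adjusted p = 0.88). Polk (a polymerase that copies past lesions), Xpc and Ddb2 (which recognize damage in nucleotide excision repair) and Ercc5 (which cuts the damaged strand) passed in neither experiment by limma with all libraries and no replicate block. In 2MUT their changes ran from -0.50 to 0.09 on the log2 scale, and with 2-HG from -0.13 to 0.31. That of Ddb2 in 2MUT was -0.50 (adjusted p = 0.092). By limma it passed without Control replicate 2 (-0.68, adjusted p = 0.032) and with a block for the replicate number (-0.50, adjusted p = 0.048). Rrm2b, a subunit of the p53-induced ribonucleotide reductase, had 1 or 2 reads in each library of Control and 2MUT and was not tested there. With 2-HG its log2 fold change was 0.43 (adjusted p = 0.28), with overlapping groups.

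Cd82, a tetraspanin known as a suppressor of metastasis, fell with 2-HG from 29.3, 23.1 and 25.0 RPM to 14.9, 18.0 and 18.8 RPM. The groups did not overlap (mean 1.49-fold lower, log2 fold change -0.55 ± 0.14, limma adjusted p = 0.014). The call was lost without 2-HG(-) replicate 1 (adjusted p = 0.055). Control (23.4, 35.9 and 31.4 RPM) and 2MUT (22.7, 32.1 and 31.5 RPM) overlapped, and the change was -0.07 (adjusted p = 0.82).

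**Figure D2:**
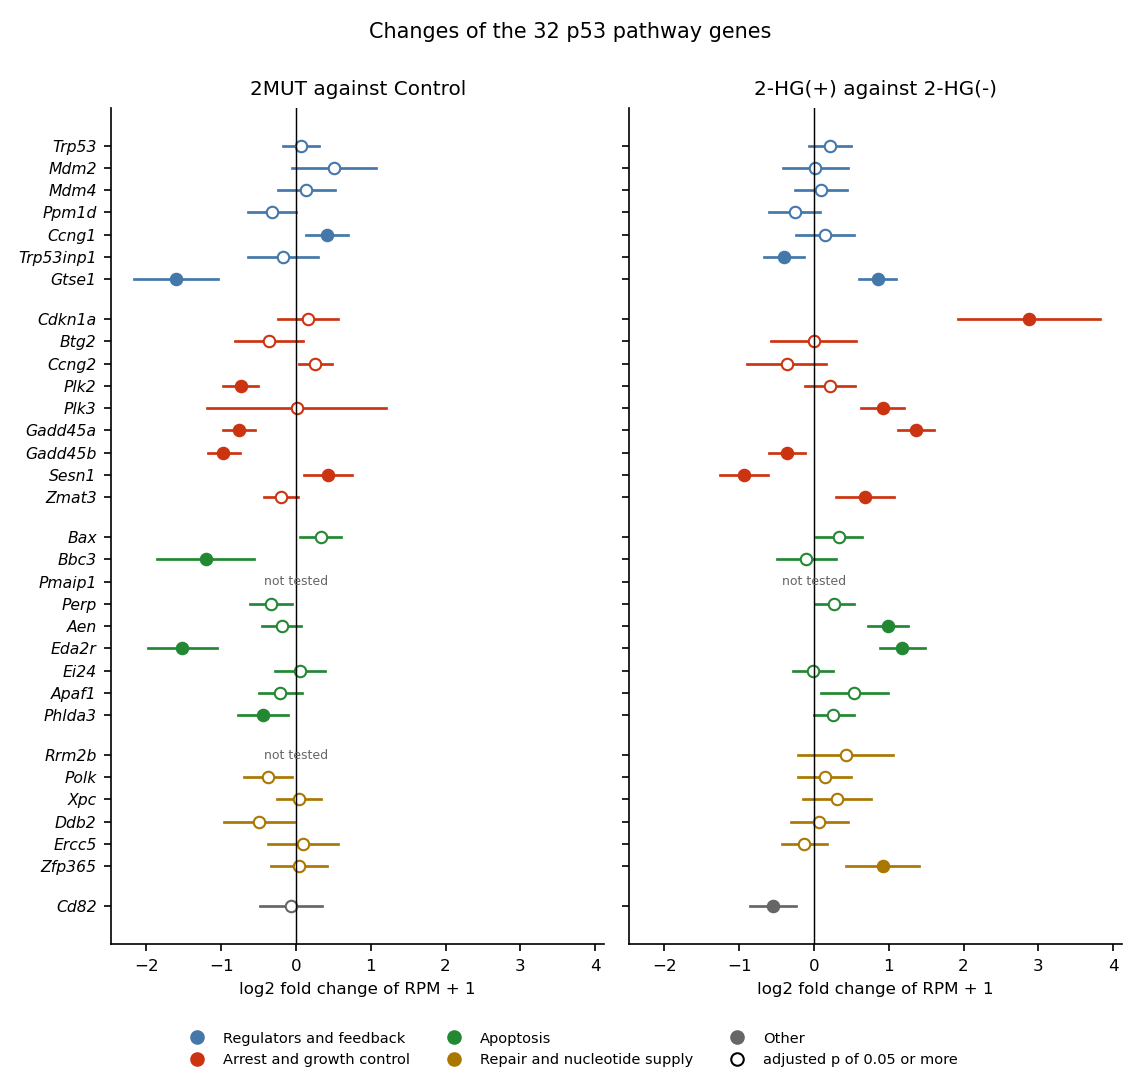
Log2 fold changes of RPM + 1 (points) with 95% intervals (lines) for the 32 genes, grouped by role, in 2MUT against Control (left) and 2-HG(+) against 2-HG(-) (right). Filled points had a limma adjusted p under 0.05, which were 2 higher and 7 lower in 2MUT and 8 higher and 4 lower with 2-HG.

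The changes in the 2 experiments were then compared with each other. The difference between the change in 2MUT and the change with 2-HG was tested with limma over all 12 libraries for the 30 members tested in both. It passed for 14 members, or 46.7%, and for 39.4% of 9594 genes. In 13 of them, or 43.3% of the members tested, the change in 2MUT was below that with 2-HG, which was the case for 19.5% of all genes, and with all libraries it was above in Sesn1 alone (3.33%, against 19.9% of all genes). Ccng2 was also above when 2-HG(+) replicate 1 was left out (0.94, adjusted p = 0.00044, against 0.62 and 0.099 with it). The members were chosen with earlier results known, so these shares are given as a description.

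Among the 9 members called in 2MUT and the 12 called with 2-HG, 5 were called in both, which is 55.6% and 41.7% of them. Over all genes tested in both, these shares were 40.9% and 42.6%. Gtse1, Gadd45a and Eda2r were down-regulated in 2MUT and up-regulated with 2-HG, Sesn1 went the opposite way, and Gadd45b was down-regulated in both. Over all genes, 1338 were called in both and 900 of them (67.3%) went in opposite directions, so that opposite directions were frequent beyond the members.

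**Figure D3:**
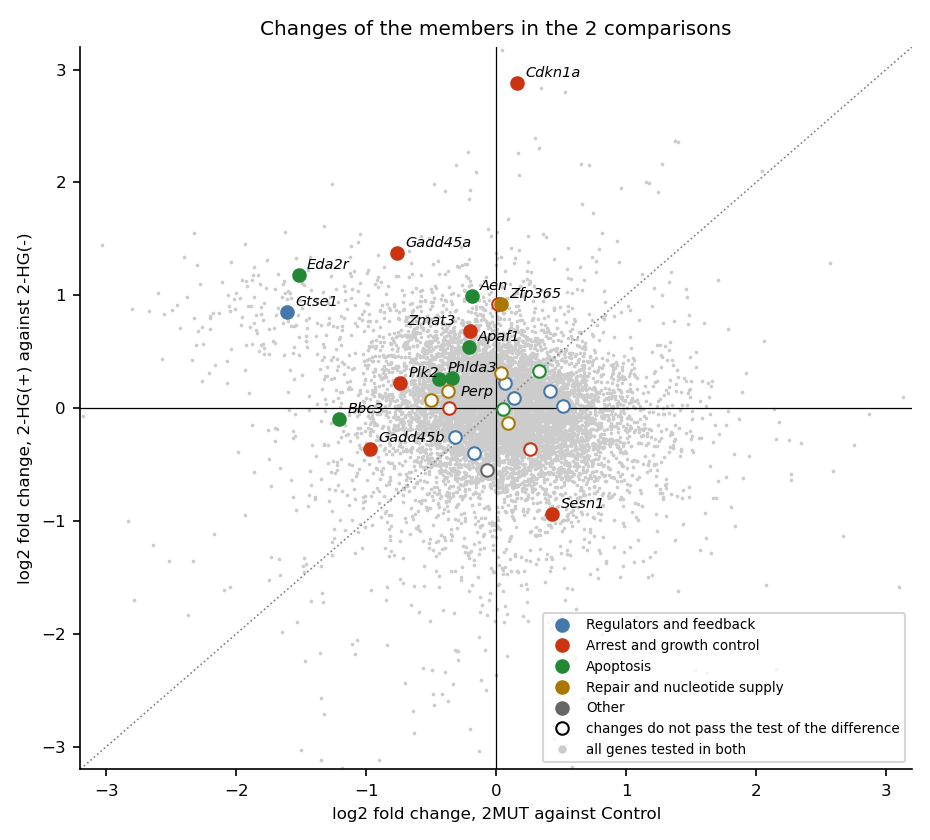
Log2 fold change with 2-HG (vertical) against that in 2MUT (horizontal) for the 30 members tested in both experiments and for all genes tested in both (grey); the dotted line marks equal changes and a few genes beyond the axes are not drawn. Filled, named points are the 14 members whose changes differed, and 13 of them lie above the line of equal changes.

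Genes above p53 and further targets were described from lists separate from the 32 members. Of 9 tested genes that act on p53 or resemble it, 2 rose and 1 fell in 2MUT, where 16.5% and 17.3% of all genes did. Hipk2, a kinase of p53, was at 75.5, 58.5 and 67.0 RPM in Control and at 198, 183 and 176 RPM in 2MUT (log2 fold change 1.46, limma adjusted p = 6.4e-06). Rchy1, a ubiquitin ligase for p53, rose by 0.70, and Trp63, a relative of Trp53, fell by 1.65 on the log2 scale.

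With 2-HG, 2 of 10 such genes rose and 2 fell, against 16.1% and 16.7% of all genes. The checkpoint kinases Chek1 and Atr rose, with log2 fold changes of 1.33 and 0.74. Cdkn2a, the locus of p16Ink4a and p19Arf, was measured by a target whose position is not given in the sources used here, so which product it reads is not known. It was at 548, 518 and 507 RPM in 2-HG(-) and at 297, 276 and 295 RPM in 2-HG(+), and fell by 0.86 on the log2 scale (limma adjusted p = 0.0001). In 2MUT it was at 796 to 978 RPM in Control and at 910 to 973 RPM in 2MUT (log2 fold change 0.09, adjusted p = 0.49). Trp63 fell here too, from 3.54, 4.01 and 4.98 RPM to 0, 0.842 and 0.196 RPM (0, 14 and 3 reads). At these low levels the fall of 1.98 on the log2 scale depends on the 1 RPM added before the logarithm.

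Of the further p53 targets, 2 of 13 tested rose and 7 fell in 2MUT, and 3 of 12 rose and 5 fell with 2-HG. The list was chosen with earlier results known, and of all genes 16.5% rose and 17.3% fell in 2MUT and 16.1% and 16.7% with 2-HG. The death receptors went opposite ways with 2-HG, where Fas fell from 35.3, 43.8 and 37.6 RPM to 17.5, 15.8 and 14.6 RPM and Tnfrsf10b rose from 38.3, 39.6 and 46.5 RPM to 74.4, 80.9 and 62.0 RPM. Their log2 fold changes were -1.23 (limma adjusted p = 0.00011) and 0.79 (adjusted p = 0.0015). In 2MUT, Tnfrsf10b was lower than in Control (-0.50, adjusted p = 0.024), and its changes differed by -1.29 (adjusted p = 0.00013). Sesn2, the relative of Sesn1 that is also a target of the stress factor Atf4, rose in both experiments, by 1.20 in 2MUT and 0.91 with 2-HG on the log2 scale. Tigar, which limits glycolysis, rose by 0.65 in both. Dram1, a lysosomal membrane protein, fell by 0.53 in 2MUT and by 0.66 with 2-HG. Steap3 and Dcxr fell in both experiments, by 0.83 and 0.71 in 2MUT and by 1.07 and 0.72 with 2-HG on the log2 scale.

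The integrated stress response moved with the 2-HG group as well. All 8 genes of a list of this response (Atf4, Ddit3, Atf3, Trib3, Chac1, Asns, Sesn2 and Ppp1r15a) rose with 2-HG, with a median log2 fold change of 2.07, and their mean was 1.82 to 1.96 above the 2-HG(-) mean on the log2 scale in each 2-HG(+) library. In 2MUT, 3 of the 8 rose, Ddit3 fell, and the median was 0.41. Elements bound by factors of this response were searched on both strands in the members' windows. The C/EBP-ATF response element, TGATGNAA, was found for Polk alone and in 3.97% of all windows, and the cAMP response element, TGACGTCA, for Btg2, Plk2 and Ppm1d and in 1.79% of all windows. The part of the stress response in the changes of the members was not tested.

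**Figure D4:**
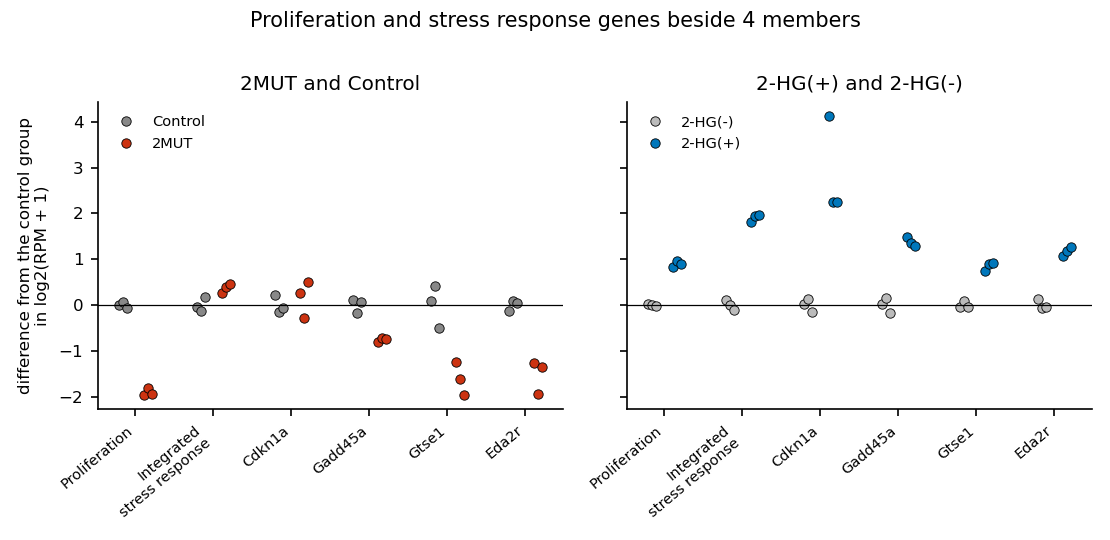
Difference of each library from the mean of its control group in log2(RPM + 1), as the mean over 7 proliferation genes, the mean over 8 genes of the integrated stress response, and for 4 members, in the experiment with 2MUT (left) and in that with 2-HG (right). The proliferation genes, Gadd45a, Gtse1 and Eda2r lie below 0 in all 3 2MUT libraries and above 0 in all 3 2-HG(+) libraries, and the first 2-HG(+) library stands apart for Cdkn1a.

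The half-sites were also set beside the calls. Of the genes with a promoter window, a half-site was present in 4 of 7 that rose with 2-HG (Cdkn1a, Gadd45a, Aen and Gtse1), in 1 of 3 that fell (Sesn1) and in 7 of 15 that did not pass the threshold. In 2MUT it was present in 2 of 2 that rose, 2 of 7 that fell and 8 of 16 that did not pass. These counts are small, and no relation between the half-sites and the changes was tested.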

How the data were processed

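RNA-seq of 12 libraries of MEF cells was analysed, and groups were taken from the sample labels. The libraries were made by Ion AmpliSeq, which amplifies a short target per transcript. Reads had been aligned by the authors with TMAP and counted with the AmpliSeqRNA plug-in, and the deposited values are RPM, 1 table for each experiment (43280 and 23930 entries). A value thus reflects the amplified target, and levels were not compared between genes or tables. The members and all lists were chosen with earlier results of these data known. All 32 members were accounted for, with every library value for Trp53, Mdm2, Cdkn1a and each member past the threshold. For testing, limma 3.58.1 (R 4.3.3, mean-variance trend) was applied to log2(RPM + 1) of genes averaging 1 RPM or more, with Benjamini-Hochberg adjustment over all genes and a threshold of 0.05. The difference between experiments was the contrast of the changes. No replicates agreed within sampling noise (chi-square per degree of freedom 5.88 to 33.11). Values were whole multiples of 1 read (100% within 0.01 reads), so edgeR 4.0.16 and DESeq2 1.42.0 on recovered reads were alternatives, beside 0.1 added before the logarithm, no filter, a filter at 10 RPM, other scalings, an unmoderated test, a block for the replicate number, and leaving out each library. Fits were also run on simulated data, in which only genes of at least 10 RPM were changed, by at least 1 on the log2 scale. Smaller changes, and changes of genes at lower levels, were not simulated, so that run does not bear on them. Positions come from GENCODE M21, and promoters and motifs from RefSeq windows on GRCm38.p6. Tables and plots were made with pandas 2.3.3 and matplotlib 3.10.9.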

Additional observations from a re-analysis of the deposited data

Results flagged for a closer look

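The changes of 14 members differed between the experiments by the limma test of the difference itself (adjusted over 9594 genes). The change in 2MUT minus the change with 2-HG, on the log2 scale, was -2.72 for Cdkn1a, -2.70 for Eda2r, -2.46 for Gtse1, -2.13 for Gadd45a, -1.18 for Aen, -1.11 for Bbc3, -0.96 for Plk2, -0.88 for Zmat3, -0.88 for Zfp365, -0.76 for Apaf1, -0.71 for Phlda3, -0.61 for Gadd45b, -0.61 for Perp and 1.37 for Sesn1. For Cdkn1a, the value was -2.09 without 2-HG(+) replicate 1. The difference did not pass for Bbc3 without Control replicate 2 or 3, 2MUT replicate 3, 2-HG(-) replicate 2 or 2-HG(+) replicate 2 (adjusted p between 0.052 and 0.069). It passed narrowly (adjusted p = 0.05 after rounding) without 2MUT replicate 1 or 2-HG(-) replicate 3. For Apaf1 it did not pass without 2MUT replicate 3, 2-HG(-) replicate 1 or 2 or 2-HG(+) replicate 1 (0.053 to 0.073). For Zfp365 it did not pass without any 1 of 8 libraries, all except Control replicate 3, 2MUT replicate 2, 2-HG(-) replicate 1 and 2-HG(+) replicate 1 (0.054 to 0.08). The differences of 4 other members passed when 1 library was left out, 0.94 for Ccng2 without 2-HG(+) replicate 1, -1.78 for Plk3 without Control replicate 3, -0.68 for Polk without 2-HG(-) replicate 2 and -0.75 for Ddb2 without Control replicate 2.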

How the results depend on the processing

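Of the calls above, 5 of 9 in 2MUT (Gtse1, Plk2, Gadd45a, Gadd45b and Eda2r), 7 of 12 with 2-HG (Gtse1, Cdkn1a, Plk3, Gadd45a, Sesn1, Aen and Eda2r) and 11 of 14 differences held under every alternative that gave a value. Members higher in 2MUT numbered 2, with 1 without a filter and 0 in an unmoderated test (3 at an unadjusted p under 0.05). DESeq2 gave 3, and leaving out each library gave 0 to 1. Of all genes, 1826 were higher, with 1701 of 18584 without a filter and 1021 in the unmoderated test. When each library was left out, 1290 to 1908 genes were higher. Members lower with 2-HG numbered 4, with 1 in the unmoderated test, 2 with the replicate block and 2 to 4 when each library was left out. Of all genes, 1737 were lower, with 1139 in the unmoderated test, 1286 with the block and 1204 to 1600 when each library was left out. Without Control replicate 3, the log2 fold change of Plk3 in 2MUT was -0.87, and without Control replicate 1 it was 0.48. Correlations of deviations from the group means gave no sign that the replicate numbers pair the samples. They were 0.071, 0.029 and 0.032 in the table of 2MUT, and -0.457, -0.158 and 0.057 in that of 2-HG. Between different numbers they ran from -0.414 to 0.48. Such correlations cannot settle the pairing, since deviations within a group of 3 libraries depend on each other. With the replicate block, 3 members were higher and 8 lower in 2MUT, 8 were higher with 2-HG and 13 differed. Over all genes, the block gave 1911 higher and 1987 lower in 2MUT and 1217 higher with 2-HG. It gave 1694 genes with the change in 2MUT above that with 2-HG and 1651 with it below. It added Bax (adjusted p = 0.037) and Ddb2 (adjusted p = 0.048) to the calls in 2MUT. It ended the calls of Trp53inp1 and Gadd45b with 2-HG and the difference of Apaf1. The unmoderated test also ended the calls of Ccng1, Sesn1, Bbc3 and Phlda3 in 2MUT, those of Trp53inp1, Gadd45b, Zmat3, Zfp365 and Cd82 with 2-HG, and the differences of Bbc3, Apaf1 and Zfp365. Those of Sesn1 and Phlda3 in 2MUT were lost without a filter. The causes were not tested. Low read numbers limit Mdm2, Bbc3 and Rrm2b in the table of 2MUT, and low levels limit Bbc3 in that of 2-HG as well.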
